A study of Drosophila melanogaster with 2 samples.

Results

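The X-linked genes lncRNA:CR44357 and CG1677 of Drosophila melanogaster lie on top of each other, and the region they cover held 15 of the 2712 thresholded peaks of tagged CG11398. lncRNA:CR44357 (FBgn0265457) runs from X 7405797 down to 7166451 in the dm6 build, over 239347 bp. CG1677 (FBgn0029941) runs from the same start down to 7281089, over 124709 bp, so it covers the upstream part of the longer gene. The locus was chosen from these peak lists, with the positions of the peaks known, and its members are all regions with a summit between those ends. They were 15 thresholded peaks, 82 of 30000 pooled relaxed regions, 89 of 30000 regions of replicate 1 and 65 of 30000 regions of replicate 3. Since the lists chose the locus, its peak counts are a description, and no test was made on any of them.

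The data came from chromatin immunoprecipitation and sequencing in 2 biological replicates, numbered 1 and 3, which formed the only group. Both were whole embryos of mixed sex, collected over 0 to 24 h, from a transgenic line carrying CG11398-eGFP, a fusion with the tag at the C terminus that is expressed stably. The pull-down used an antibody against GFP, although the antibody field of the labels names CG11398. The promoter that drives the fusion is not given in the labels, all tissues of the embryo were pooled, and no untagged group was analysed here. Relaxed lists keep weak background regions on purpose, while the thresholded list was derived from the pooled and both replicate lists by a cutoff on the irreproducible discovery rate, a measure of how well ranks repeat. No read counts came with the lists, so the depth is unknown. The value given for each region is the authors' signal, a score per region whose scaling the sources used here do not state. It serves here only to describe and rank regions, and a difference between replicates in this score was not separated from scaling.

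A long non-coding RNA such as lncRNA:CR44357 is transcribed and spliced without a long open reading frame. CG1677 is annotated as a protein-coding gene for an uncharacterized protein. Fly genes often contain other genes inside their introns, and regulatory DNA of such a nested gene then lies inside the host gene as well. The nested gene brk (FBgn0024250) encodes Brinker, a repressor of genes that the BMP ligand Dpp activates. In the fly embryo and wing, Dpp signalling in turn shuts off brk through silencer elements, to which the Smad proteins Mad and Medea bind together with Schnurri.

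Both members begin at one annotated start. All 3 transcripts of lncRNA:CR44357 and the transcript CG1677-RB start at X 7405797 on the minus strand, and they have the first 2 exons in common (7405145 to 7405797 and 7358661 to 7358687). CG1677 has 2 further starts close to its coding exons, at 7286195 and 7284877, more than 100 kb downstream of the shared one. The span holds 14 other genes in full, all protein-coding, of which 13 lie inside CG1677, and the 3′ part of Cph reaches into it from the side. Cph encodes Chronophage, a zinc-finger transcription factor of the nervous system.

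Peaks are numbered 1 to 15 from the low to the high coordinate, which runs against the direction of transcription of both members. Sequence is shown for the places the account turns on, all read from the RefSeq genome in the dm6 build, plus strand of X. The first is the whole gap between the inner start of CG1677 and the start of its divergent neighbour CG2059 (chrX:7286196-7286357, 162 bp), where peak 3 has its summit. The second is the 101 bp around the summit of peak 8, upstream of brk (chrX:7307108-7307208). In these the capitals mark the 11 bases centred on the summit. The third is the 101 bp around the summit of peak 14, the strongest of the locus (chrX:7337030-7337130), with an E-box in capitals. The last is the 101 bp at peak 11 (chrX:7333330-7333430), with a Forkhead core in capitals.
Gap at peak 3: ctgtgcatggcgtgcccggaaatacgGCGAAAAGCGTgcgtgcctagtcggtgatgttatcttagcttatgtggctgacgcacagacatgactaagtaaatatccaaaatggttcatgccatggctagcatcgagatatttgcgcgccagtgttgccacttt
Peak 8: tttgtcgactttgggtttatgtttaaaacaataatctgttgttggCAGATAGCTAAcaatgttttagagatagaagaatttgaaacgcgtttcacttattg
Peak 14: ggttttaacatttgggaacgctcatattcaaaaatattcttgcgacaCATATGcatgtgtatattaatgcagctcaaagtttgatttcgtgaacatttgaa
Peak 11: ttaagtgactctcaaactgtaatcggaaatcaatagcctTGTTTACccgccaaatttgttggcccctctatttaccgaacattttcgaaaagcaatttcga

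No region of any list marked the shared start. The nearest thresholded summit was peak 15, which lay 67079 bp downstream of it. The nearest pooled relaxed summit lay outside the span, 9297 bp upstream, with a signal of 22.97 at rank 29502 of 30000. In replicate 1 the nearest summit was 19593 bp downstream of the shared start (signal 13.8), and in replicate 3 it was 6724 bp downstream (signal 13.4). The 67079 bp between the shared start and peak 15 held 0 thresholded peaks and 6 pooled relaxed regions, the strongest of them at 35.1. It also held 9 regions of replicate 1 and 5 of replicate 3, so of the 3 stretches that peaks 1 and 15 delimit, the one next to the shared start had the fewest relaxed regions.

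The inner start of CG1677 did carry a peak. Peak 3 (X 7286019 to 7286434) had its summit 32 bp upstream of the start at 7286195, and 131 bp upstream of the divergent start of CG2059. Its signal was 129.6, rank 1051 of 2712, and it was 80.7 in replicate 1 and 47.3 in replicate 3. The summit thus sat in the gap printed above, which separates the starts of the 2 genes. At the innermost CG1677 start, 7284877, the nearest pooled relaxed summit was 98 bp downstream and weak (26.1, rank 23920). CG2059, like CG1677, is annotated as encoding an uncharacterized protein, and which of the 2 genes the peak belongs to was not tested.

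The part of lncRNA:CR44357 that CG1677 does not cover held 2 peaks. Peak 1 (X 7242044 to 7242148) had a signal of 152.9, and its summit was 197 bp beyond the annotated 3′ end of Cph and 15674 bp from the nearest start. It was 53.2 in replicate 1 and 99.9 in replicate 3, the largest ratio between replicates in the locus. Peak 2 (X 7277083 to 7277498) was weak, at 91.7, with 33.2 in replicate 1 and 60.7 in replicate 3, and it lay 7586 bp downstream of the nearest CG1677 start. Both were therefore higher in replicate 3. The strongest relaxed region of the span that overlapped no thresholded peak (62.0, rank 4401) was also here. Its summit was 41 bp inside the 3′ end of lncRNA:CR44357, in the last exon and also in an intron of Cph. The signal of this region was 28.5 in replicate 1 and 34.9 in replicate 3.

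Within the span Cph carried no thresholded peak in its body, though both of its starts there were marked weakly. The start at 7226455 had a pooled relaxed summit 31 bp downstream (46.8), seen at 17.5 in replicate 1 and 28.3 in replicate 3. The start at 7196029 had one 247 bp downstream (31.5), at rank 16951.

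Between the low end of the span and peak 1, 75678 bp held 19 pooled relaxed regions and no thresholded peak. From peak 1 to peak 15, 96590 bp held all 15 peaks and 57 pooled relaxed regions, or 59.0 per 100 kb. This density was 25.1 per 100 kb between the low end and peak 1, and 8.94 per 100 kb between peak 15 and the shared start. Annotated starts fell with the peaks only in part: there were 13 distinct starts from peak 1 to peak 15, 2 between the low end and peak 1, and 6 between peak 15 and the shared start.

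**Figure D1:**
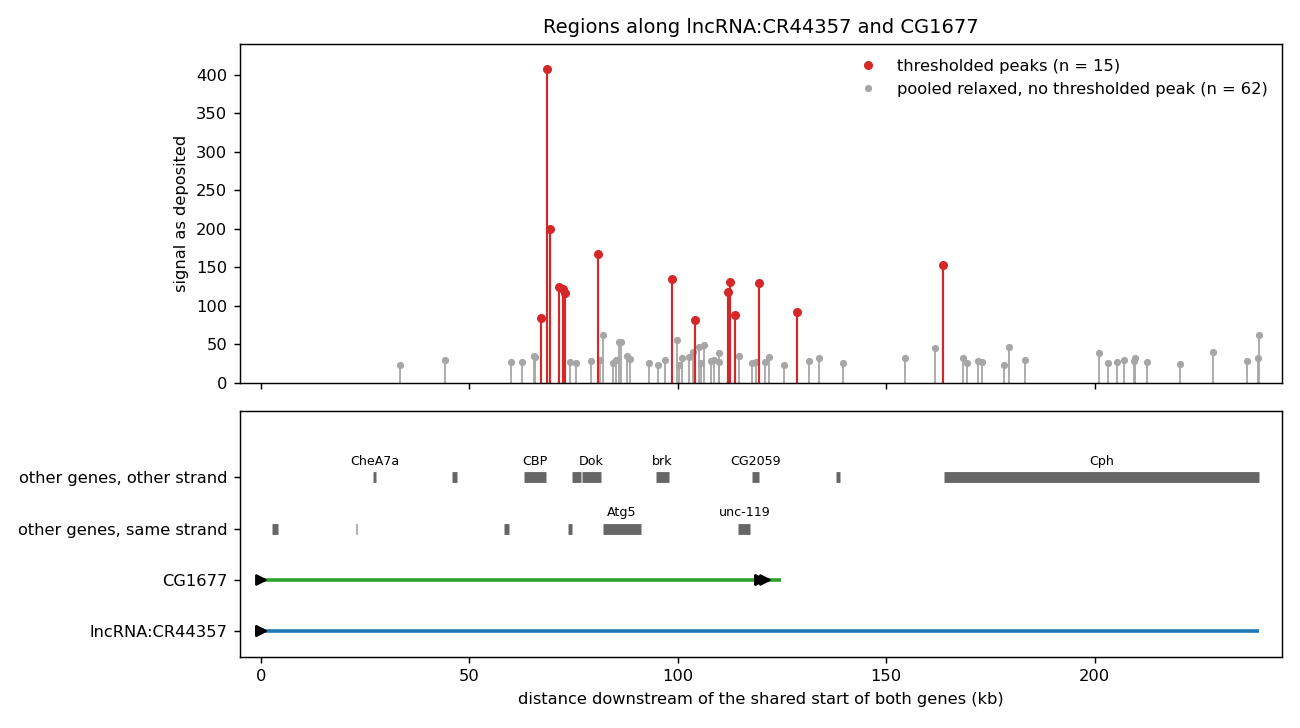
Signal as deposited (vertical axis) of the 15 thresholded peaks (red) and the 62 pooled relaxed regions that overlapped none of them (grey), against the distance downstream of the shared start in kb; below, the genes of the span, with arrowheads at the starts of the 2 members and Cph drawn only as far as the span reaches. All peaks lie between 67079 bp from the shared start and peak 1, which sits 75678 bp before the far end, and the tallest reaches 407.7.

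Immediately upstream of unc-119, whose product is a lipid-binding trafficking protein named after a nematode gene, stood peaks 4, 5 and 6. Peak 4 (87.9, with 55.6 in replicate 1 and 32.9 in replicate 3) had its summit 744 bp upstream of that start. Peak 5 (130.6, with 68.3 in replicate 1 and 68.6 in replicate 3) and peak 6 (118.1, with 66.1 in replicate 1 and 56.2 in replicate 3) followed at 2018 bp and 2459 bp, only 441 bp apart. They form the lower end of the interval between unc-119 and brk, which are transcribed away from each other.

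At brk itself the peaks stood upstream of the gene and not on its start. Peak 8 (X 7306950 to 7307365) had a signal of 135.2, rank 967, with its summit 781 bp upstream of the start. Its replicate signals were 70.3 in replicate 1 and 68.1 in replicate 3, and the replicate summits were 2 bp apart. Peak 7 lay 6298 bp upstream and was the weakest of the locus, at 81.5, rank 2597 (40.8 in replicate 1 and 35.6 in replicate 3). At the start of brk the replicates each listed a weak region, at -16 bp in replicate 1 (29.2, rank 6960) and at -259 bp in replicate 3 (13.9, rank 22697), and the pooled list had none within 500 bp. The brk transcription unit thus held no thresholded peak.

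The Mad-Medea-Schnurri silencer element was searched for over the span and the whole of X, on both strands. It matched 10 times in the span, or 4.18 times per 100 kb, and 81 times on the whole of X including the span, or 0.344 times per 100 kb. The element was chosen because it is known to act on brk, so the higher rate in the span is a description only. Of the 10 matches, 9 fell within 13834 bp (X 7291944 to 7305777), from 15995 bp to 2177 bp upstream of the brk start. The matches that lie upstream of brk are printed from the far to the near one, each on the strand of the element, to set them beside the peaks. Capitals mark the positions at which the element sets the base or, at the second, allows A or G.
Upstream 15995 bp (chrX:7291944-7291959, minus strand): GGCGcCcgtgcGTCTG
Upstream 13845 bp (chrX:7294094-7294109, plus strand): GGCGaCagactGTCTG
Upstream 8218 bp (chrX:7299721-7299736, plus strand): GACGaCagagtGTCTG
Upstream 8186 bp (chrX:7299753-7299768, plus strand): GGCGaCattctGTCTG
Upstream 8035 bp (chrX:7299904-7299919, minus strand): GACGtCgctctGTCTG
Upstream 7665 bp (chrX:7300274-7300289, minus strand): GGCGcCtctatGTCTG
Upstream 6639 bp (chrX:7301300-7301315, plus strand): GGCGtCcgctcGTCTG
Upstream 5187 bp (chrX:7302752-7302767, plus strand): GGCGgCcaaatGTCTG
Upstream 2177 bp (chrX:7305762-7305777, minus strand): GACGaCggactGTCTG

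Of the 10 matches, 1 lay inside a thresholded peak and 5 inside a pooled relaxed region. The one inside a peak was the farthest from brk, 98 bp from the summit of peak 4. The matches at 13845 bp and 6639 bp were 337 bp from the summit of peak 6 and 341 bp from that of peak 7. The others upstream were between 1111 bp and 1920 bp from the nearest thresholded summit, and the tenth, inside Atg5, was 7598 bp from it. The stretch of 13834 bp held 4 thresholded peaks and 16 pooled relaxed regions. Neither the same counts for all matches on X nor the share of this sequence inside relaxed regions is given here. The counts therefore describe the locus only. A match is a description of the letters and not of a bound site.

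**Figure D2:**
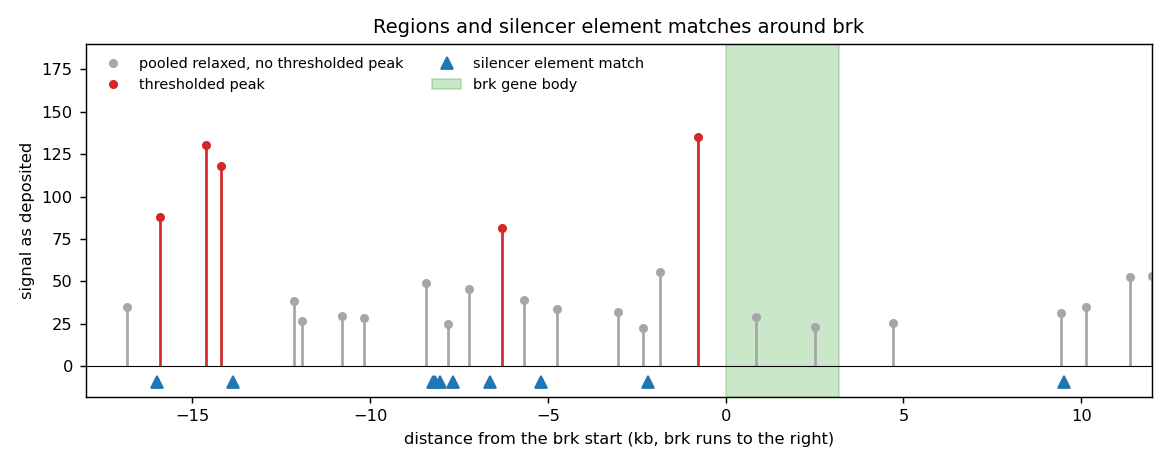
Signal as deposited of thresholded peaks (red) and of pooled relaxed regions overlapping none (grey) around brk, against the distance from the brk start in kb, with triangles at matches of the silencer element and the brk transcription unit shaded. The red point 781 bp upstream of brk stands at 135.2 with the nearest match 1396 bp away, and of the 9 matches upstream only the farthest lies within a peak.

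Atg5 and Dok are divergent neighbours. Atg5 encodes the autophagy protein that is joined to Atg12, and Dok encodes an adaptor protein of tyrosine kinase signalling. The start of Atg5 carried a relaxed region that missed the thresholded list (61.6, rank 4445, with 28.5 in replicate 1 and 32.9 in replicate 3), with its summit 5 bp inside the gene. Peak 9 (X 7324849 to 7325264) lay in an intron of Dok, 843 bp downstream of the Dok start. Its signal was 166.8, rank 626, with 90.7 in replicate 1 and 78.9 in replicate 3. The peak of the pair was thus in the gene body and the weak region at the starts.

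Of the genes in the span, CBP, which encodes a sarcoplasmic calcium-binding protein, had the strongest peak before it. Within 5 kb of its first start lay 6 of the 15 peaks (40.0%), spread over 5969 bp. Peak 14 (X 7336932 to 7337196) was the strongest of the locus, at 407.7, rank 80 of 2712, and 2.05 times the next. Its summit was 272 bp upstream of CBP, and it was 226.4 in replicate 1 (rank 72 of 30000) and 184.8 in replicate 3 (rank 89). Peak 13 followed at 995 bp upstream with 199.1 (98.8 in replicate 1 and 101.1 in replicate 3). It was the second strongest of the locus and ranked 435.

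Peaks 10, 11 and 12 lay farther upstream of CBP, between it and CG42780, at 558 bp, 1189 bp and 2049 bp upstream of the start of that gene, which is annotated as encoding an uncharacterized protein. Peak 10 had 116.5, peak 11 had 121.2 and peak 12 had 124.6. Peak 10 was 53.6 in replicate 1 and 56.5 in replicate 3, and peak 11 was 63.9 in replicate 1 and 54.4 in replicate 3. Peak 12 was 82.6 in replicate 1 and 46.9 in replicate 3, so it was the least even of the 3. Peak 15 (83.7, with 36.1 in replicate 1 and 43.2 in replicate 3) was the one peak of this group inside CBP, in an intron, 1012 bp downstream of the nearer of its starts. At the first start of CBP itself, the nearest pooled relaxed summit was 66 bp upstream and weak (31.6).

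Of the 14 genes lying fully in the span, 2 had a thresholded summit within 500 bp of a start, CG2059 and CBP (14.3%), which is near the 10.6% of the 18164 annotated genes. In all 5 had a pooled relaxed summit there (35.7%, compared with 47.5% of all annotated genes), the others being unc-119, Atg5 and Dok, and 9 had none. Those 9 included brk and CG42780, whose nearest peaks lay 781 bp and 558 bp away, and Acsf3, which encodes an acyl-CoA synthetase. They also included the 5 genes between CBP and the shared start (CG15034, CG1999, CheA7a, CG42781 and CG15035), whose starts were between 8788 bp and 64456 bp from a peak. CheA7a belongs to a family of chemosensory proteins. CG1958, inside the part of lncRNA:CR44357 that CG1677 does not cover, lay 10387 bp from a peak.

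All 15 summits fell in introns of lncRNA:CR44357, and 13 of them also in the long introns of CG1677. None was in an exon of any annotated gene, and 2 were inside a nested gene (Dok and CBP). The span is the body of lncRNA:CR44357, so a place in its introns follows largely from the choice of the locus. Shares in introns and exons over all peaks are not given here, so these counts are a description only. Only peaks 3 and 14 lay within 500 bp of a start, which is 2 of 15 (13.3%, exact 95% interval 1.66 to 40.5), against 1468 of all 2712 peaks (54.1%) and 222 of the 468 peaks on X (47.4%). The difference was smaller with a wider window: within 1000 bp of a start lay 7 of 15 (46.7%), against 64.3% of all peaks and 59.0% of those on X. Within 200 bp lay 1 of 15 (6.67%), against 40.1% of all peaks and 28.6% of those on X. In the locus, 3 summits were over 5 kb from any start. Relative to the nearest start, 11 summits were upstream and 4 downstream, with no share over all peaks to set beside this. The pooled relaxed regions of the span were also rarely at promoters, 11 of 82 (13.4%, exact 95% interval 6.89 to 22.7) against 32.8% of all 30000.

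Apart from peak 14, the signals of the locus lay in the lower 90% of the list. The 15 peaks ran from 81.5 to 407.7 with a median of 124.6, against 115.1 over all thresholded peaks and 115.3 on X, and 11 of 15 were above the list's median. The weakest, peak 7 at 81.5, stood just inside the lower edge of the thresholded list at 79.8, and the strongest relaxed region of the locus outside that list reached 62.0. Of the 62 pooled relaxed regions overlapping no peak, 26 overlapped a region in both replicates, 33 in one and 3 in none. Their median signal was 29.3, and 9 had a summit in coding sequence. The same counts over all pooled relaxed regions outside the thresholded list are not given here, so these describe the locus only.

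Each of the 15 peaks overlapped a region in both replicate lists. The same held for all 2712 thresholded peaks, a list derived from the replicate lists, so it says nothing particular about the locus. Of the 15 peaks, replicate 1 was the higher in 9 and replicate 3 in 6, and over all 2712 peaks replicate 1 was the higher in 1770. The log2 ratio of replicate 1 over replicate 3 had a median of 0.20 (SD 0.51, n = 15 peaks), against 0.18 (SD 0.56) over all 2712. It ran from -0.91 at peak 1 to 0.82 at peak 12. The replicate summits were a median of 29 bp apart and at most 72 bp, compared with 27 bp and 358 bp over all peaks, and in 14 of 15 cases they were within 50 bp. Peaks 9, 13 and 14 ranked among the top 1000 regions of both replicates. How many of all peaks did so, or had replicate summits within 50 bp, is not given here. The values of peaks in a replicate share that library, so they are no replicates of each other.

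**Figure D3:**
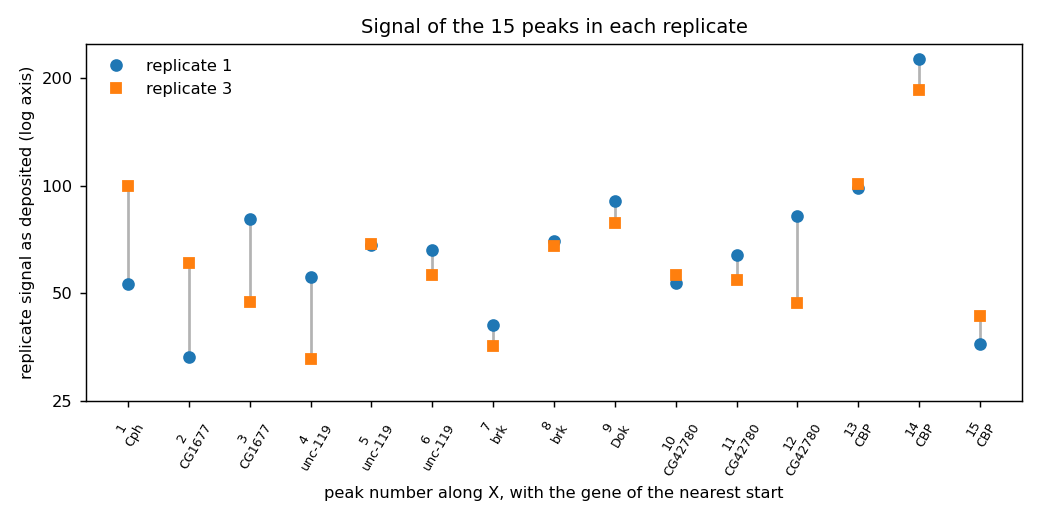
Signal as deposited (log axis) in replicate 1 (circles) and replicate 3 (squares) for each of the 15 peaks along X, labelled with the gene of the nearest start, and with a line joining the pair. Peak 14 is highest in both replicates, at 226.4 and 184.8, and peaks 1 and 2 are higher in replicate 3 while peaks 3, 4 and 12 are higher in replicate 1.

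Beyond the peaks, the relaxed lists overlapped to different degrees in the 2 directions. In the span 49 of 89 regions of replicate 1 overlapped one of replicate 3 (55.1%, exact 95% interval 44.1 to 65.6), against 58.1% on the rest of X. Of the 65 regions of replicate 3, 46 overlapped one of replicate 1 (70.8%, exact 95% interval 58.2 to 81.4), against 57.8% on the rest of X. Replicate 1 thus listed more regions here, and a smaller share of them was found again. Of the 82 pooled relaxed regions, 20 overlapped a thresholded peak (24.4%, exact 95% interval 15.6 to 35.1), against 11.2% of all 30000. In the CG1677 part this was 18 of 55, and in the rest of the span 2 of 27. This share follows from the peak count that chose the locus, so nothing is read from it. The intervals cover counting error only.

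For the density of peaks, the span was set beside windows of its own length that start every 10 kb along X. Its 15 peaks compared with a median of 4 and a mean of 4.80 per window, and 97.0% of the 2331 windows held fewer, 30 held as many and 39 held more. The highest count was 21. Windows with 15 or more peaks were then taken from the highest count down, leaving out those that overlapped one already taken. Apart from the window over the locus itself, this left 3, named here by their longest gene: Hr4 (21), CG42340 (17) and Smr (15). The name does not place the peaks in that gene, and the body of CG42340 held 0 thresholded peaks. Another order of picking could give another number of windows. For relaxed regions the locus stood out less: the 82 pooled regions exceeded 89.2% of windows, the 89 of replicate 1 exceeded 92.2% and the 65 of replicate 3 exceeded 73.2%. Windows overlap each other, so these shares are descriptions.

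**Figure D4:**
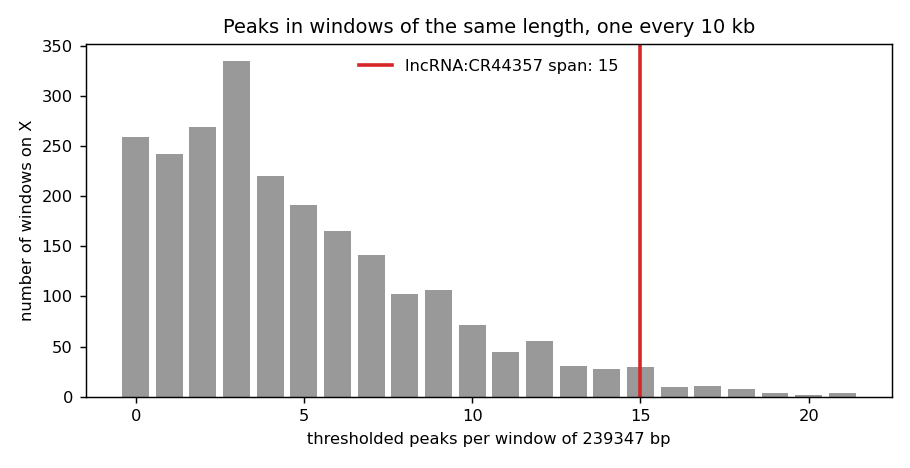
Number of windows on X (vertical axis) with a given number of thresholded peaks (horizontal axis), for 2331 windows of 239347 bp starting every 10 kb; the red line marks the 15 peaks of the span. Most windows hold 10 peaks or fewer, and 39 lie to the right of the line.

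The 15 peaks were packed closely. Neighbouring summits were a median of 3817 bp apart, from 441 bp to 35162 bp, against a median of 18428 bp on X. The median of the span was 2127 bp with the strongest regions of replicate 1 alone and 5828 bp with those of replicate 3 alone. Of the 14 gaps, 4 (28.6%) were under 1000 bp, compared with 7.92% of the 467 gaps on X. The locus was chosen with the positions of its peaks known, so this spacing is a description only. Joining summits within 1000 bp left 11 sites in the span. The peaks beyond its ends were far away: the next thresholded summit on the low side was 64651 bp outside the span (130.2, near CG4615), and on the high side 212605 bp outside (114.8, near ct). The 100 kb on the low side held 3 peaks, the strongest at Sxl (137.9), the master gene of sex determination, and the 100 kb on the high side held none.

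Among the 89 annotated genes of at least 100 kb, CG1677 had the most thresholded peaks per 100 kb of gene body, at 10.4, and lncRNA:CR44357 came next at 6.27. They are not separate cases, since 13 peaks count for both, and they were chosen from these peak lists. The median of long genes was 0, and 47 of them held no peak. Some of those 47 also held 0 pooled relaxed regions, so the median rests partly on genes without any pooled region. The long genes closest to lncRNA:CR44357 in this density were Eip75B, dnc, jing, pyd and Ptp61F. Eip75B, which encodes an ecdysone-induced nuclear receptor, had 6 peaks, or 5.28 per 100 kb. The density was 4.18 per 100 kb in dnc (7 peaks), a cAMP phosphodiesterase gene, and 4.17 per 100 kb in jing (5 peaks), a zinc-finger factor gene. It was 3.82 per 100 kb in pyd (4 peaks), which encodes a cell junction scaffold, and 3.77 per 100 kb in Ptp61F (5 peaks), a tyrosine phosphatase gene. Within the body of lncRNA:CR44357 lie 21 distinct annotated starts, so it had 0.714 peaks per start.

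**Figure D5:**
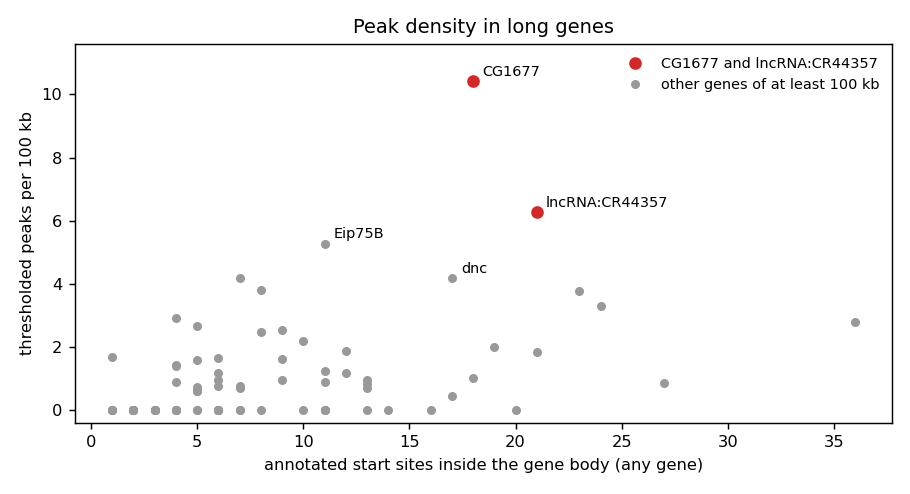
Thresholded peaks per 100 kb of gene body (vertical axis) against the number of annotated start sites of any gene inside that body (horizontal axis), for the 89 genes of at least 100 kb. CG1677 at 10.4 and lncRNA:CR44357 at 6.27 (red) are the top points, above Eip75B at 5.28.

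The sequence under the peaks was poor in G and C. In windows reaching 100 bp to each side of a summit, GC content averaged 34.7% (SD 5.82, n = 15 peaks), against 39.3% (SD 7.00) over all thresholded peaks, 45.1% over all pooled relaxed regions and 42.3% for the whole span. For the 13 peaks away from promoters it was 34.0% (SD 5.31), against 38.2% (SD 6.14) for the 1244 such peaks of the whole list. Peak 15 was the poorest at 26.9%, and peak 1 the richest at 48.3%. In all, 12 of the 15 were below the mean of the list, and the share of all peaks below that mean is not given here.

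Short consensus sites of 6 known kinds and the silencer element were counted around the summits. Within 50 bp on either strand, the Forkhead core TGTTTAC occurred at 1 of 15 peaks (peak 11, 8 bp from the summit), and at 5.38% of all peaks and 2.82% of pooled relaxed regions. The E-box CATATG occurred at 1 of 15 (peak 14, on the summit itself), and at 4.13% of all peaks and 2.88% of relaxed regions. The Dref element TATCGATA, the homeodomain core TAATTA, the Zelda site CAGGTAG, the GAGA repeat GAGAGAG and the silencer element occurred at 0 of 15, and over all peaks at 2.10%, 6.56%, 0.369%, 2.40% and 0%. Within 100 bp, the Forkhead core and the E-box each occurred at 2 of 15 (13.3%), against 8.92% and 7.56% of all peaks. The Dref element, the homeodomain core and the silencer element each occurred there at 1 of 15 (6.67%), against 3.91%, 11.9% and 0.0737% of all peaks, and the Zelda site and GAGA repeat again at 0. For the silencer element the share over all peaks is 2 of 2712, with peak 4 of the locus among them. That element was chosen because it is known to act on brk, so nothing is read from this contrast. That no match was found says only that these letters are not in these windows.

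The other genes of the BMP pathway were set beside brk. In a list of 21 such genes, 3 had a thresholded summit within 500 bp of a start (14.3%, near the 10.6% of all genes), namely shn (155.2), ush (107.5) and cv-2 (90.4). These encode the corepressor Schnurri, a GATA cofactor and the secreted BMP-binding protein Crossveinless 2. In all 17 of the 21 had a pooled relaxed summit there (81.0%, against 47.5% of all genes). The set of all genes includes non-coding ones and is not matched for the number of starts. Peaks lay inside the bodies of 10 of them (47.6%, against 7.4% of all genes, with gene length not matched), among these ush with 11, shn with 5 and Dad, the inhibitory Smad, with 4. brk had none in its body or within 500 bp of its start, with peak 8 at 781 bp. A list of 13 genes for cap-binding proteins and the nuclear exosome was also taken. Of these, 2 had a thresholded summit at a start, Csl4 (117.2) and Rrp42 (101.5), or 15.4%, near the 10.6% of all genes. A pooled relaxed summit there was found for 11 of the 13, against the same unmatched 47.5% of all genes. A high share was thus not particular to the BMP list. That list was drawn up on a presumed relation of CG1677 to RNA processing, which the annotation used here does not give.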

How the data were processed

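Region lists for 2 biological replicates of embryos with tagged CG11398 were used in the dm6 build. The deposited signal, 1 value per region, has no normalization given for it. According to the authors' accompanying notes, alignments of a replicate and a control gave its relaxed list, alignments of both replicates gave the pooled list, and these 3 lists gave the thresholded one through the irreproducible discovery rate. Which aligner, caller and cutoffs were used is not given in the sources used here. Lists in dm3 were not used. The lists carry no read counts, so depth is unknown.

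Summits were taken from the deposited offsets. Starts and genes came from Ensembl release 115 on 6 main arms (18164 genes, transposons left out), sequence from the Release 6 genome. Overlap meant at least 1 bp and was checked with bedtools 2.31.1 (17958 shared regions in both counts). A promoter was 500 bp on either side of a start. The overlap, window and motif counts were tested on simulated data. Intervals are exact binomial at 95%. Python 3.11.15, pandas 2.3.3 and scipy 1.17.1 were used. The locus, lists and consensus sites were chosen with earlier results of these data known, so no tests were made. Named genes were the 2 members, genes with a start within 500 bp of a thresholded summit or nearest to one, coding genes of the span with a relaxed summit at a start, and the 5 long genes of closest peak density. The genes without a relaxed summit at a start, the list genes and the neighbours outside the span were named beside their counts after their values were seen. To leave out a replicate, the other's 2712 strongest regions replaced the list.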

Additional observations from a re-analysis of the deposited data

How the results depend on the processing

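Of 36 alternatives, 24 kept the reported values within 1.5 times for counts and gaps, 1 SD for GC content or the exact 95% interval for shares, and 12 moved beyond that. Such an interval is narrow for a share over many overlapping windows and wide for a share over 15 peaks. The split into 24 and 12 therefore depends on the numbers counted and does not measure stability alone. The number of peaks in the span was 11 in the stronger 50% of the list and ran from 12 to 14 when a replicate was left out. Peaks 2, 7 and 15 were missing without replicate 3, and peaks 4 and 7 without replicate 1, where a region inside Atg5 (46.0) was added. The share of X windows with fewer peaks was 97.0%. It ran from 93.8% to 95.6% when a replicate was left out, and was 98.2% with the stronger 50% of peaks, 97.9% with windows on all main arms, 99.6% for peaks per annotated start and, in an alternative chosen after seeing the data, 94.1% with summits within 1000 bp joined. The share of peaks at promoters was 46.7% with a window of 1000 bp and ran from 14.3% to 16.7% when a replicate was left out. With a match defined as summits at most 100 bp apart, 39.3% of replicate 1 regions in the span recurred in replicate 3, against 36.2% over the whole list. The median signal of the peaks was at percentile 57.6 of the list, and from 53.1 to 55.5 by the replicates alone. The median gap ran from 2127 bp to 5828 bp when a replicate was left out. The cause of these moves was not tested. No paired analysis was possible because there was 1 group. With 2 replicates and no read counts, the error of a single signal value is unknown.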
